A study of Rattus norvegicus with 6 samples.

Results

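The proteasome subunit genes are the 40 rows whose gene symbol is Psma, Psmb, Psmc, Psmd or Psme followed by a number, leaving out the immunoproteasome genes Psmb8, Psmb9 and Psmb10, of 17954 genes in the deposited files. They comprise 16 genes of the core particle (Psma and Psmb), 20 of the regulatory particle (Psmc and Psmd) and 4 of separate activators (Psme). Expression was measured by mRNA sequencing in condylar organoids, small tissues grown in a special chondrogenic medium. It was also measured in chondrocytes of the mandibular condyle (the cartilage of the jaw joint). These chondrocytes were grown flat as a 2D culture in DMEM with 20% fetal bovine serum and antibiotics. Both groups hold rat material kept at 37 °C with 5% CO2, and each has 3 libraries. Culture format and medium differ together between the groups and cannot be told apart, the labels give no genotype, strain or age, and separate animals or cultures behind the replicates are not named. The p-values therefore reflect library-to-library spread alone, and that spread may be technical.

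The proteasome is the protease that degrades ubiquitin-tagged proteins in the cytosol and nucleus. Its core is a barrel of stacked rings of alpha and beta subunits with the active sites inside. The regulatory particle, which caps the barrel, binds the ubiquitin tag, removes it, and unfolds the substrate with a ring of ATPases, while the Psme activators are other caps that open the barrel without ATP. Chondrocytes rely on the proteasome for the turnover of regulatory proteins and of proteins rejected by the secretory pathway.

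Total estimated counts were 18592574 to 25656808 in organoids and 25856486 to 26472447 in 2D culture. Col1a1 alone took 20.04% to 26.4% of the counts in organoids, against 3.31% to 4.35% in 2D culture, so levels depend on how libraries are scaled. Values are CPM, a gene's counts per 1000000 counts of the library after TMM scaling, unless named otherwise, as mean ± SD (n = 3), and changes are log2 fold changes of organoid over 2D culture ± SE. Calls use edgeR's quasi-likelihood test with Benjamini-Hochberg adjustment over all 13052 genes tested, at a threshold of 0.05, which 27.5% of those genes passed. Of the 5 tested chondrocyte markers of 6, 4 were higher in organoids, where their summed level was 9005 to 91393 CPM, against 1478 to 1579 CPM in 2D culture, and none was at 0 in all libraries of a group. In 2D culture the defining markers were nonetheless scarce, with Col2a1 at 2.91 to 4.89 CPM, Col9a1 at 0.398 CPM or less and Matn1 at 0.0306 CPM or less, while Acan stood at 1413 to 1513 CPM. All 3 hypertrophic markers (summed 1459 to 3525 CPM in organoids, 1.59 to 2.79 CPM in 2D culture) and all 4 osteoblast markers (10121 to 16112 CPM and 64.4 to 68.4 CPM) were higher, and all 4 smooth muscle markers (33.4 to 45.96 CPM and 3042 to 3287 CPM) were lower in organoids. Macrophage and blood markers summed to 9.42 to 34.1 CPM in organoids and 0.275 to 0.681 CPM in 2D culture. Csf1r had 32.5, 16.7 and 0.142 CPM in organoid 1, 2 and 3, against at most 0.279 CPM in 2D culture. Hbb had 0.236, 0.901 and 9.13 CPM in organoids and 0 CPM in 2D culture. Adgre1 was at 0 in every library and Ptprc at 0.142 CPM or less. Only Cd68 was tested, and it did not pass. Endothelial markers reached at most 1.3 CPM in either group. Of the few tested markers of other types, 1 of 2 for osteoclasts, 1 of 1 for adipocytes and 0 of 1 for skeletal muscle were higher in organoids. The osteoclast markers Ocstamp, Dcstamp and Calcr had no values, and Ctsk did not pass. Acp5, the osteoclast marker that rose, had 99, 23.2 and 14.8 CPM in organoid 1, 2 and 3, against 3.55 to 4.35 CPM in 2D culture. The part of these cell type markers in the results on the proteasome was not tested.

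Most genes of the core and regulatory particles were lower in organoids. Of 34 tested genes of the 2 particles, 18 fell, 0 rose and 16 did not pass, against 12.6% of all tested genes that fell and 14.9% that rose. The core had 8 of 14 lower and the regulatory particle 10 of 20. At an unadjusted p under 0.05, 26 of the 34 were lower and 0 higher, against 19.7% of all tested genes lower. In all, 32 of the 34 were fitted below 0, against 51% of all tested genes. The groups did not overlap, with organoids lower, for 28 of the 34, against 30.2% of all tested genes. The median log2 fold change was -0.72 for the core and -0.92 for the regulatory particle, against -0.03 for all tested genes and -0.07 for the 7014 tested genes in the same range of mean CPM. Among the 4 activators 1 rose, Psme4, and 3 did not pass. In these bulk samples fewer cells of a type and less RNA per cell cannot be told apart.

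**Figure D1:**
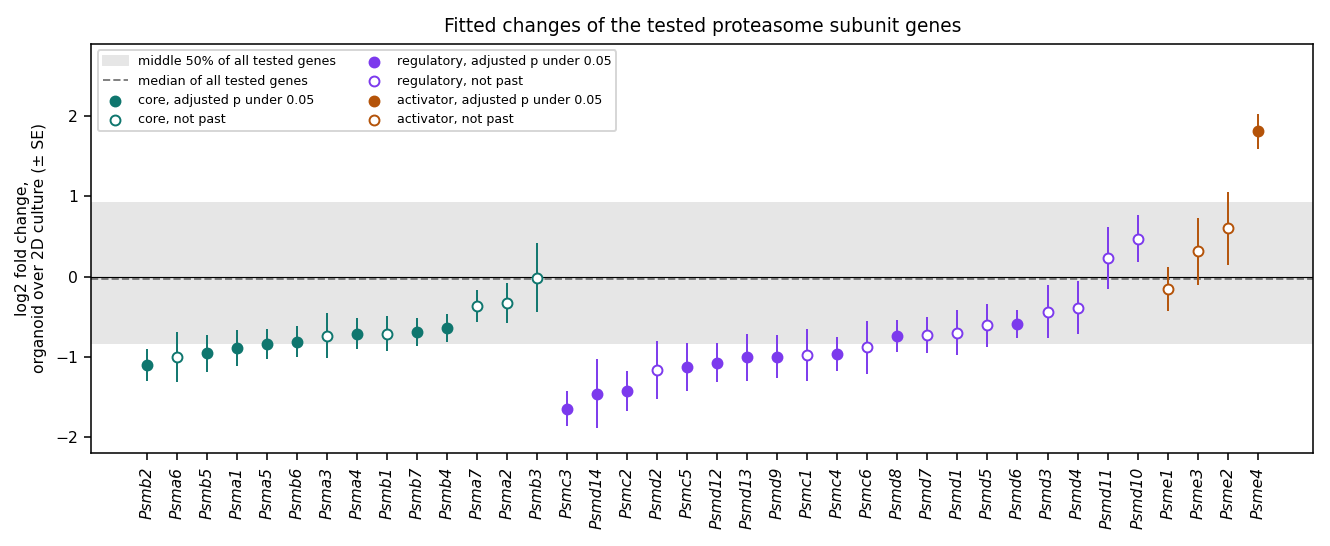
Fitted log2 fold change, organoid over 2D culture, of the 38 tested proteasome subunit genes, with bars of 1 SE, filled where the adjusted p is under 0.05; the band holds the middle 50% of all tested genes and the dashed line their median of -0.03. Of the core and regulatory genes 32 of 34 lie below 0, and Psme4 stands at 1.81.

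These counts of calls fell most when a 2D culture was left out. The edgeR test fits 1 spread per gene to both groups, although organoids were more widely spread than 2D cultures. The part of this shared spread in the calls was not tested. Without 2D culture 1, 2 or 3, 0 core genes were called and the regulatory genes called lower numbered 1, 2 and 2, while the share of all tested genes called lower was 2.98%, 3.27% and 3.03%. Of the 34 genes 31 to 34 were fitted below 0 in each of the 15 alternatives tried. Without organoid 1, 2 or 3, 15, 23 and 23 core and regulatory genes were lower, against 17.1%, 19.2% and 17.3% of all tested genes. Without organoid 2, 1 regulatory gene, Psmd11, was called higher, against 20.5% of all tested genes. With the replicate number as a block 11 core and regulatory genes were lower, 2 of them core, against 9.88% of all tested genes. Scaled by library totals alone, the median of all tested genes shifted to -0.65, and 29 of the 34 were lower (medians of -1.31 for the core and -1.53 for the regulatory particle), against 27% of all tested genes.

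As a share of all counts in a library, a total that includes the Col1a1 counts and so carries the same shift of all genes as scaling by library totals, the 16 core genes made up 0.0886%, 0.169% and 0.151% in organoid 1, 2 and 3, against 0.318%, 0.335% and 0.32% in 2D culture 1, 2 and 3. The 20 regulatory genes held 0.136%, 0.148% and 0.213% in organoids, against 0.476%, 0.459% and 0.464% in 2D culture. Every organoid lay below every 2D culture in both, and the ratios of the mean shares were 0.42 for the core and 0.355 for the regulatory genes. After TMM scaling the core summed to 1650 ± 282 CPM in organoids and 2608 ± 38.1 CPM in 2D culture, a ratio of 0.632, and the regulatory genes to 2047 ± 387 CPM and 3755 ± 119 CPM, a ratio of 0.545.

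**Figure D2:**
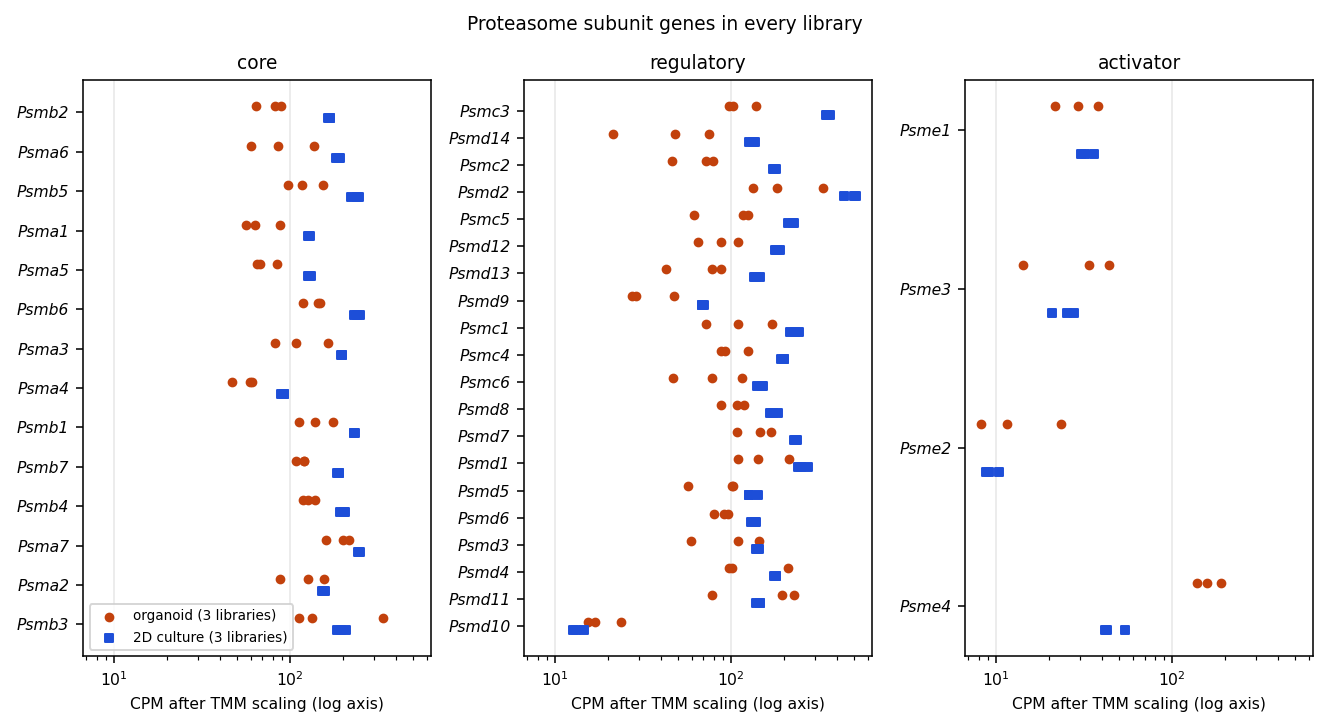
CPM after TMM scaling (log axis) of every tested proteasome subunit gene in each of 3 organoid (circles) and 3 2D culture (squares) libraries, by class. Organoid points lie left of the 2D culture points for 28 of the 34 core and regulatory genes, against 30.2% of all tested genes. They lie right of the 2D culture points for Psmd10 and Psme4, and they are spread more widely.

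Promoter sequences are shown for 6 genes that the results turn on: Psmb2 and Psmc3, with the largest falls of the core and of the regulatory particle, the 3 active-site genes Psmb5, Psmb6 and Psmb7, and Psme4, the activator that rose. The RefSeq table of build GRCr8 held a promoter of 300 bases (250 before and 50 after the gene's start) for 35 of the 40 genes. Capitals mark matches on either strand to TGACNNNGC, the core of the antioxidant response element that NFE2L1 and NFE2L2 bind, to CCAAT, the box bound by NF-Y, or to TGACGTCA, the cyclic AMP response element. The windows are chr5:144254808-144255107 (plus strand) for Psmb2, chr15:32047330-32047629 (minus) for Psmb5, chr10:55737638-55737937 (plus) for Psmb6, chr3:42827421-42827720 (minus) for Psmb7, chr3:97487393-97487692 (plus) for Psmc3 and chr14:108706393-108706692 (plus) for Psme4.
Psmb2: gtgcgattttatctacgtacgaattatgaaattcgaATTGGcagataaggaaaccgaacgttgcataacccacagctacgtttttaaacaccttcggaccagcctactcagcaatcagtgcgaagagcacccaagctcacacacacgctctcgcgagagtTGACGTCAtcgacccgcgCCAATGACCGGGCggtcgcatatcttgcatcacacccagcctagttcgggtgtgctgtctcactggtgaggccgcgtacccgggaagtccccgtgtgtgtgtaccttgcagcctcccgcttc
Psmb5: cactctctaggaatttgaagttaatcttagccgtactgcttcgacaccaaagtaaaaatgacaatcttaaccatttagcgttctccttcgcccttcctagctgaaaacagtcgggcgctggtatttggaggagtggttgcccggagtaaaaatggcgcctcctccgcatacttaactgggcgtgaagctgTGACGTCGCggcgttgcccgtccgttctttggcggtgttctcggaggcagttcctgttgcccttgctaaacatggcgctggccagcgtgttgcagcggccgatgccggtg
Psmb6: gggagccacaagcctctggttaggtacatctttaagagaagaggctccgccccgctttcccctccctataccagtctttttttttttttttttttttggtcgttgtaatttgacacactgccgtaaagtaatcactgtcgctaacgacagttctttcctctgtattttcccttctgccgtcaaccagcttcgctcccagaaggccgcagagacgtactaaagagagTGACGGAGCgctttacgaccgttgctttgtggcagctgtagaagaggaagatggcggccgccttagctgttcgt
Psmb7: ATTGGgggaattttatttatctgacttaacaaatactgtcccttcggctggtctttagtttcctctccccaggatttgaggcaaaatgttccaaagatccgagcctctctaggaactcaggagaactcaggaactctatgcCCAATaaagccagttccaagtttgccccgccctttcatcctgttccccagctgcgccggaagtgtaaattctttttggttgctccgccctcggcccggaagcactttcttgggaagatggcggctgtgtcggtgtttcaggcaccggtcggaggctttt
Psmc3: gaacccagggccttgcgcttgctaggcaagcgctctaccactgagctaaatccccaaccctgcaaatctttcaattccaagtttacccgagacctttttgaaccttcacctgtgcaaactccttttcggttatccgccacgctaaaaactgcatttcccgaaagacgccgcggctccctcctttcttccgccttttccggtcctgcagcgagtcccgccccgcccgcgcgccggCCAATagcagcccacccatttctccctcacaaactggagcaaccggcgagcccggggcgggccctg
Psme4: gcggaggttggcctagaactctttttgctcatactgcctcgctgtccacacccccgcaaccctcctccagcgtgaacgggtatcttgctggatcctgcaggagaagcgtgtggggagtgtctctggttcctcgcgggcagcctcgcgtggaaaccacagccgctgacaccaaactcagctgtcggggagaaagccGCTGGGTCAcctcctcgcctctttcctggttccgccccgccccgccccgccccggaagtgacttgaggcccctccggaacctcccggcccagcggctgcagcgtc
The Psmb2 window held all 3 motifs, with the TGACNNNGC match 68 bases before the start and sharing 1 base with a CCAAT box. Psmb5 and Psmb6 had a TGACNNNGC match 60 and 24 bases before the start. Psmb7 had none, and held CCAAT boxes 250 and 109 bases before the start, the farther one on the opposite strand. Psmc3 had a CCAAT box 16 bases before the start, and Psme4 a TGACNNNGC match on the opposite strand, 55 bases before it.
Among the 14 core promoters, 9 (64.3%) held CCAAT and 4 (28.6%) TGACNNNGC, and among the 17 regulatory promoters 7 (41.2%) held CCAAT and 3 (17.6%) TGACNNNGC. CCAAT was in 37.7% of all promoters in the table and 37.9% of those of tested genes, and TGACNNNGC in 12.2% and 14.5%. TGACGTCA was in 1 core promoter, that of Psmb2, in 0 regulatory ones, and in 1.91% of all promoters. A match is a stretch of letters, and binding was not measured.

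The active sites of the core sit on 3 beta subunits, and all 3 genes fell, against 12.6% of all tested genes. Psmb5, the chymotrypsin-like subunit, had 97.6, 117 and 154 CPM in organoid 1, 2 and 3, against 224, 248 and 242 CPM in 2D culture 1, 2 and 3 (log2 fold change -0.95 ± 0.23, edgeR adjusted p = 0.0231). Psmb6, the caspase-like subunit, had 120, 149 and 144 CPM in organoids, against 242, 250.4 and 232 CPM in 2D culture (-0.81 ± 0.19, adjusted p = 0.0211). Psmb7, the trypsin-like subunit, had 109, 121 and 121 CPM in organoids, against 191, 191 and 186 CPM in 2D culture (-0.70 ± 0.17, adjusted p = 0.0261). For each of these genes the highest organoid lay below the lowest 2D culture, as was so for 30.2% of all tested genes. Each call was lost in edgeR without any one 2D culture (adjusted p of 0.0882 to 0.121). Psmb6 and Psmb7 also lost their calls in edgeR with the replicate number as a block (adjusted p = 0.0648 and 0.092). The immunoproteasome counterparts, which interferon induces and which replace these subunits, were low, and none passed. Psmb10 averaged 8.64 ± 3.9 CPM in organoids and 21.1 ± 2.18 CPM in 2D culture (-1.29 ± 0.41, edgeR adjusted p = 0.0568). Every organoid lay below every 2D culture for Psmb10. Psmb8 and Psmb9 averaged at most 1.24 CPM in either group.

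Psmb2, a beta subunit without an active site, showed the largest fall of the core. It had 64.4, 82.02 and 89.1 CPM in organoids, against 166, 169 and 170 CPM in 2D culture (-1.10 ± 0.20, edgeR adjusted p = 0.00935), and it did not pass without 2D culture 1, 2 or 3 (adjusted p of 0.0571, 0.0567 and 0.0604). The structural subunit Psmb4 also fell (-0.64 ± 0.18), as did 3 alpha subunits, Psma1 (-0.89 ± 0.22), Psma4 (-0.71 ± 0.19) and Psma5 (-0.84 ± 0.19), which form the outer rings and the gate. None of these 4 was called without any one 2D culture or with the replicate number as a block. Psma4 and Psmb4 also lost their calls in limma-voom with 1 weight for each group (adjusted p = 0.0558 and 0.0544).
Psma1 had 63.3, 87.5 and 56.4 CPM in organoids, against 126, 130 and 129 CPM in 2D culture. Organoid 2 was the highest of the organoids and still lay below all 2D cultures.
The other core genes did not pass. Psma6 (-0.999 ± 0.31, adjusted p = 0.0554) and Psmb1 (-0.71 ± 0.22, adjusted p = 0.0528) stood just outside the threshold, and both passed with DESeq2 and limma-voom. Psma3 (-0.74 ± 0.28), Psma7 (-0.36 ± 0.20) and Psma2 (-0.33 ± 0.25) lay further off. Psma3 had a fractional count in all 6 libraries and Psmb1 in 1, a sign of reads shared with other genes, so these values are uncertain.

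Psmb3, a beta subunit without an active site, was the core gene closest to no change. It had 112, 339 and 133 CPM in organoids, against 187, 209 and 195 CPM in 2D culture (-0.02 ± 0.43, edgeR adjusted p = 0.983). Organoid 2 lay above every 2D culture and organoids 1 and 3 below every one. Without organoid 2 the gene was called (adjusted p = 0.0157), and its fitted sign turned positive without organoid 1 (0.27) or organoid 3 (0.19).
The tissue-restricted core genes were near or at the detection limit. Psma8, the alpha subunit of the testis proteasome, had 0, 0 and 1 counts in organoids and 0, 0 and 1 in 2D culture. Psmb11, the beta subunit of the thymus proteasome, had 0 counts in every organoid and 0, 4 and 0 counts in 2D culture. A count of 0 allows up to 3 counts, or 0.142 to 0.18 CPM in organoids and 0.0917 to 0.0929 CPM in 2D culture. Both genes were left out by the low-count filter.

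The 6 ATPase genes of the regulatory particle, whose products form the ring that unfolds substrates, had a median log2 fold change of -1.05. Of these 6 genes 4 fell, against 12.6% of all tested genes. Psmc3 showed the largest change of all 34 core and regulatory genes. It had 97.8, 103 and 139 CPM in organoids, against 365, 351 and 347 CPM in 2D culture (-1.65 ± 0.22, edgeR adjusted p = 0.00322), so that every organoid was well under the lowest 2D culture. It stayed called in all 15 alternatives tried, with an adjusted p of at most 0.0273.
Psmc2 had 79.3, 46.6 and 72.3 CPM in organoids, against 182, 176 and 174 CPM in 2D culture (-1.42 ± 0.25, adjusted p = 0.00826), and lost its call without 2D culture 1 (adjusted p = 0.0507). Psmc5 had 62.2, 118 and 125 CPM in organoids, against 227, 211 and 228 CPM in 2D culture (-1.13 ± 0.29, adjusted p = 0.0315). Psmc4 had 87.6, 92.6 and 125 CPM in organoids, against 202, 193 and 201 CPM in 2D culture (-0.97 ± 0.21, adjusted p = 0.0172). The groups did not overlap for any of these genes, with organoids lower, as was so for 30.2% of all tested genes. Psmc4 and Psmc5 lost their calls without any one 2D culture.
Psmc1 had 111, 72.8 and 171 CPM in organoids, against 244, 218 and 232 CPM in 2D culture, and did not pass (-0.97 ± 0.32, adjusted p = 0.0648). Psmc6 had 78.01, 47.1 and 116 CPM in organoids, against 153, 141 and 150.3 CPM in 2D culture, and did not pass either (-0.88 ± 0.33, adjusted p = 0.0918). In both genes organoid 2 was the lowest library and organoid 3 the highest organoid.

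Of the 14 non-ATPase genes of the regulatory particle 6 fell, 0 rose and 8 did not pass. Of all tested genes 12.6% fell and 14.9% rose. Psmd14, the deubiquitinase that removes the ubiquitin chain before degradation, had 48.4, 21.3 and 74.9 CPM in organoids, against 137, 127 and 133 CPM in 2D culture (-1.46 ± 0.43, edgeR adjusted p = 0.0457). Its organoids spanned a 3.51-fold range, the widest of the core and regulatory genes, and all lay below the 2D cultures. It lost its call without organoid 1 (adjusted p = 0.115) and without 2D culture 1, 2 or 3 (0.135, 0.118 and 0.128).
Psmd12, a scaffold subunit of the lid that holds Psmd14, had 64.99, 88.1 and 110 CPM in organoids, against 191, 182 and 179 CPM in 2D culture (-1.07 ± 0.24, adjusted p = 0.0185). Psmd13, another lid subunit, had 78.5, 42.96 and 87.8 CPM in organoids, against 139, 136 and 146 CPM in 2D culture (-1.01 ± 0.29, adjusted p = 0.0432). The lid subunits Psmd6 (-0.59 ± 0.18, adjusted p = 0.0475) and Psmd8 (-0.74 ± 0.20, adjusted p = 0.033) fell as well. The groups did not overlap for these 4 genes, with organoids lower, as was so for 30.2% of all tested genes. Psmd6 and Psmd13 lost their calls without organoid 1, and all 4 without any one 2D culture. Psmd6 also lost its call with DESeq2 size factors, without the low-count filter and in limma-voom with 1 weight for each group (adjusted p = 0.0539, 0.0542 and 0.08). In edgeR with the replicate number as a block Psmd6 and Psmd8 lost their calls (adjusted p = 0.136 and 0.0807). Psmd8 overlaps another protein-coding gene in RefSeq, so its counts may be shared.
Psmd2, the large base subunit that docks ubiquitin shuttles, had 336, 133 and 183 CPM in organoids, against 517, 442 and 498 CPM in 2D culture, and did not pass (-1.16 ± 0.36, adjusted p = 0.0542). Leaving out organoid 1, DESeq2 and limma-voom each brought it past the threshold. Psmd4, a ubiquitin receptor, had 97.8, 211 and 102 CPM in organoids, against 181, 176 and 180 CPM in 2D culture, and did not pass (-0.39 ± 0.33, adjusted p = 0.421). Organoid 2 lay above all 2D cultures for Psmd4, and without it the gene was called (adjusted p = 0.00416). Psmd1, Psmd3 and Psmd7 did not pass either, with log2 fold changes of -0.70 ± 0.28, -0.44 ± 0.33 and -0.73 ± 0.22.

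Psmd11 and Psmd10 were the 2 regulatory genes fitted above 0. Psmd11, a lid subunit whose level in human stem cells is known to set proteasome activity, had 196, 78.5 and 230.2 CPM in organoids, against 146, 138 and 147 CPM in 2D culture (0.23 ± 0.39, edgeR adjusted p = 0.697). Organoid 2 lay below and organoids 1 and 3 above the 2D cultures. Without organoid 2 the gene was called higher (adjusted p = 0.0131), and the fitted value fell below 0 without organoid 3 and with total library size.
Psmd10 encodes gankyrin, which like the products of Psmd5 and Psmd9 is an assembly chaperone that leaves the finished particle. It had 23.7, 15.4 and 17.03 CPM in organoids, against 13.3, 12.7 and 14.6 CPM in 2D culture (0.47 ± 0.30, adjusted p = 0.277). Every organoid lay above every 2D culture after TMM scaling, as was so for 3048 of the 13052 tested genes. With total library size the fitted value of Psmd10 turned to -0.18.
The other chaperones were lower or did not pass. Psmd9 had 27.6, 28.96 and 47.5 CPM in organoids, against 68.9, 68.5 and 70.7 CPM in 2D culture (-0.999 ± 0.27, adjusted p = 0.0333), and lost its call without organoid 1 or any one 2D culture. Psmd5 did not pass (-0.61 ± 0.27, adjusted p = 0.138).

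Of the 4 activator genes 1 rose and 3 did not pass, against 14.9% of all tested genes that rose. A class of 4 genes is too small to set against that share. Psme4 encodes PA200, a large single-chain cap known from mouse and human work to serve degradation of acetylated histones. It had 139, 190.1 and 158 CPM in organoid 1, 2 and 3, against 41.5, 54.4 and 43.1 CPM in 2D culture 1, 2 and 3 (1.81 ± 0.22, edgeR adjusted p = 0.00251). The lowest organoid was above the highest 2D culture, as was so for 3048 of the 13052 tested genes. The call held in all 15 alternatives, with log2 fold changes of 1.21 with total library size to 1.93 without organoid 1 and an adjusted p of at most 0.0278. Psme4 and Psmc3 were the only 2 of the 38 tested genes called in the main fit and every one of those alternatives.
Psme1 and Psme2 encode the alpha and beta subunits of PA28, an interferon-induced ring that aids antigen processing. Psme1 had 29.2, 38.04 and 21.8 CPM in organoids, against 32.2, 36.3 and 30.7 CPM in 2D culture (-0.16 ± 0.27, adjusted p = 0.703). Psme2 had 11.5, 23.4 and 8.23 CPM in organoids, against 9.13, 10.5 and 8.85 CPM in 2D culture (0.60 ± 0.45, adjusted p = 0.363). It had fractional counts in all 6 libraries and is uncertain. Psme3, the nuclear PA28 gamma, had 14.3, 44.2 and 33.9 CPM in organoids, against 25.6, 27.7 and 20.8 CPM in 2D culture (0.32 ± 0.42, adjusted p = 0.609). The groups overlapped for these 3 genes, organoid 2 held the highest level of each, and the signs of Psme1 and Psme3 turned under single alternatives.

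Ratios within a library do not depend on scaling. The summed ATPase counts over the summed core counts were 0.385, 0.254 and 0.435 in organoids, against 0.532, 0.487 and 0.514 in 2D culture, so every organoid lay below every 2D culture. Psme4 counts over the summed core counts were 0.104, 0.101 and 0.0917 in organoids, against 0.0161, 0.0205 and 0.0166 in 2D culture, a 5.56-fold higher mean. The whole regulatory particle over the core was 1.53, 0.877 and 1.41 in organoids, against 1.5, 1.37 and 1.45 in 2D culture, and the groups overlapped. These ratios compare counts that also scale with transcript length, so they do not give the ratio of molecules, and the choice of genes was made with values known, so no test is given.

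**Figure D3:**
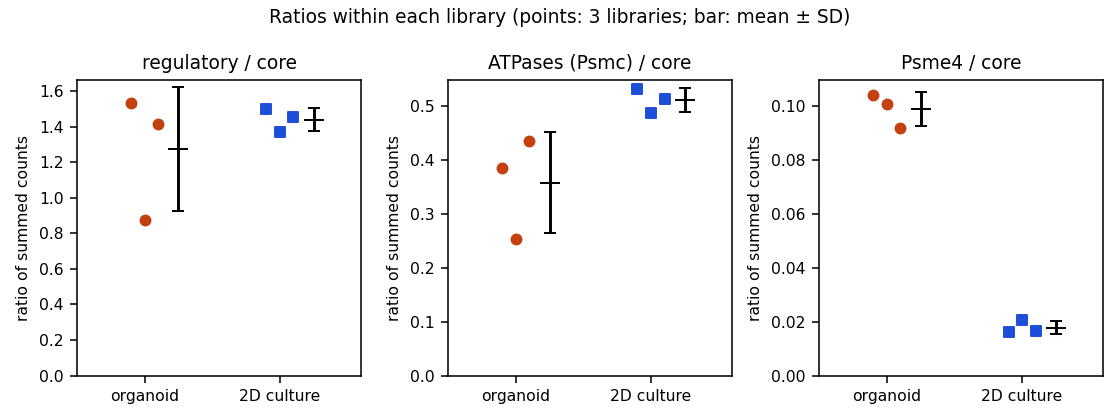
Summed counts of the regulatory genes, of the ATPase genes and of Psme4, each divided by the summed counts of the core genes in the same library, for 3 organoid and 3 2D culture libraries, with mean ± SD. The Psme4 ratio averages 0.0987 in organoids and 0.0177 in 2D culture.

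Organoids differed from each other far more than 2D cultures did. Over the 34 core and regulatory genes the highest organoid was at the median 1.7 times the lowest, against 1.06 times in 2D culture, and the range was wider in organoids for all 34. Wider spread in organoids was general. On the log2(CPM + 1) scale the SD between libraries had a median of 0.389 in organoids and 0.0409 in 2D culture for the 34 genes, against 0.594 and 0.12 for all tested genes and 0.517 and 0.0962 for those in the same range of mean CPM. Organoid 2 was the lowest organoid for 12 of 20 regulatory genes but for 2 of 14 core genes, and it was the highest for 2 regulatory and 7 core genes. Organoid 1 was the lowest for 10 core and 8 regulatory genes, and organoid 3 the highest for 7 core and 13 regulatory genes.

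Partner genes outside the naming rule were lower in part. Of 38 tested partner genes 9 fell, 1 rose and 28 did not pass, against 12.6% of all tested genes that fell and 14.9% that rose. Among them 3 assembly factors of the core fell. Psmg1, an alpha ring chaperone, averaged 32.5 CPM in organoids and 88.8 CPM in 2D culture (-1.45 ± 0.21, edgeR adjusted p = 0.00419), and was called in all 15 alternatives. Its partner Psmg2 (-1.18 ± 0.30, adjusted p = 0.0295) and Pomp, the maturation factor of the beta ring (-1.11 ± 0.19, adjusted p = 0.00714), fell too. Of the 8 tested entries of the assembly list, which includes Psmd5, Psmd9 and Psmd10, 4 fell and 4 did not pass.
The proteasome-bound deubiquitinase Usp14 fell (-1.34 ± 0.40, adjusted p = 0.0466), but it had fractional counts in all 6 libraries and is uncertain, whereas the receptor gene Adrm1 did not pass (-0.39 ± 0.25, adjusted p = 0.281). Of 6 ubiquitin and ubiquitin-activating enzyme genes 1 fell, Uba1 (-0.71 ± 0.20, adjusted p = 0.0407), a share near the 12.6% of all tested genes. Of 10 genes of shuttle factors and the p97 segregase, which extracts tagged proteins from complexes and membranes, 2 fell, Vcp itself (-1.32 ± 0.40, adjusted p = 0.0496) and its cofactor Ufd1 (-0.91 ± 0.21, adjusted p = 0.0209), and 1 rose, Ddi2, which is on this list and the next, both shares near those of all tested genes. Usp14 and Vcp lost their calls without organoid 1 and with DESeq2 size factors (adjusted p = 0.0501 and 0.0539 there), Vcp also with upper-quartile scaling and without the filter, Uba1 without organoid 3, and Psmg2, Usp14, Uba1, Vcp and Ufd1 without any one 2D culture. Pomp lost its call without 2D culture 2 or 3. In edgeR with the replicate number as a block Uba1 and Ufd1 lost theirs too (adjusted p = 0.102 and 0.0547).

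The transcription factor NFE2L1, which is activated after cleavage by the protease DDI2 and induces proteasome genes, and its relatives gave mixed results. Ddi2 was the single partner gene that rose, at 101 CPM in organoids against 31.3 CPM in 2D culture (1.69 ± 0.26, edgeR adjusted p = 0.00536), in all 15 alternatives. Nfe2l1 had 68.6 CPM in organoids and 91.2 CPM in 2D culture and did not pass (-0.41 ± 0.25, adjusted p = 0.263). Nfe2l2 had 72.4 CPM in organoids and 129 CPM in 2D culture and did not pass (-0.84 ± 0.26, adjusted p = 0.0543). Of the 11 genes in this list 1 rose, Ddi2, and 2 fell, the NF-Y subunit Nfyc (-0.99 ± 0.25, adjusted p = 0.0295) and the small Maf protein Mafk (-1.38 ± 0.27, adjusted p = 0.0128), a dimer partner of NFE2L1. Both counts are near the shares of all tested genes, 14.9% higher and 12.6% lower. Mafk and Nfyc lost their calls without any one 2D culture. Nfyc also lost its call without organoid 1 and in edgeR with the replicate number as a block (adjusted p = 0.0519 there).

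**Figure D4:**
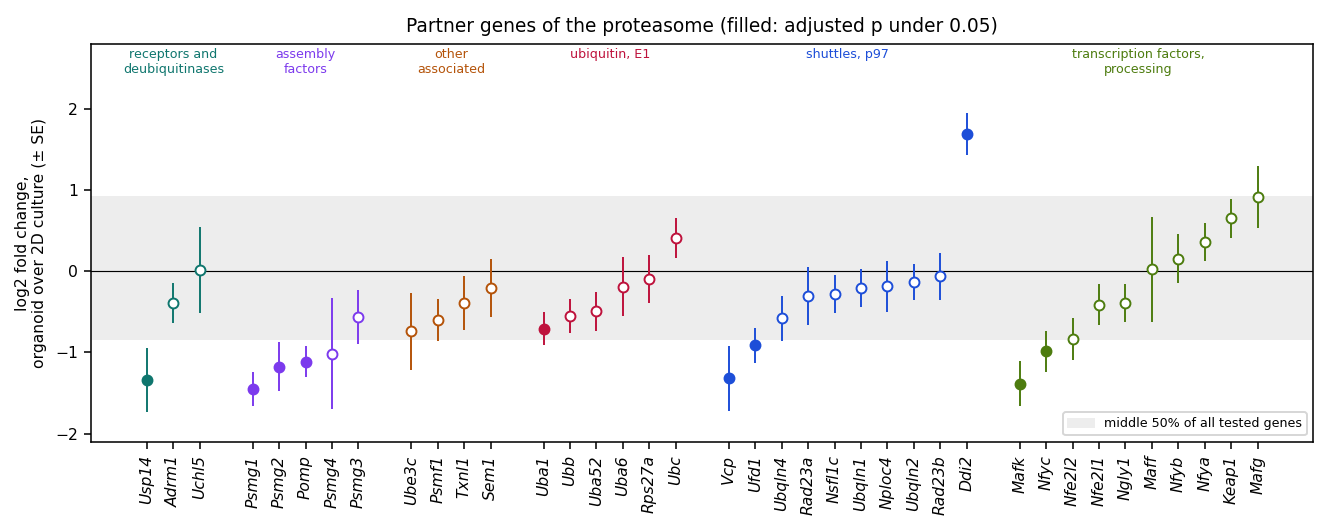
Fitted log2 fold change, organoid over 2D culture, of the 38 tested partner genes by list, with bars of 1 SE, filled where the adjusted p is under 0.05; the band holds the middle 50% of all tested genes. Ddi2 stands alone among the filled points above 0, at 1.69, and 9 filled points lie below 0.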

How the data were processed

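Groups and replicate numbers come from the sample titles. The authors deposited 1 table of expected counts (estimated, in part fractional) for every library, with no normalisation. Tools listed in the submitters' processing notes are RSEM, Bowtie2, HISAT, HISAT2 and DESeq2, with neither role nor version. Genome build and strandedness: not given in the sources used here. By RefSeq names, 7 of the 40 genes overlap another protein-coding gene (Psma8, Psmb1, Psmc6, Psmd1, Psmd5, Psmd8 and Psme1), and without strand their reads may be shared.

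Estimated counts were rounded and analysed in R 4.3.3 with edgeR 4.0.16: filterByExpr (minimum count 10), TMM, robust quasi-likelihood F-test, Benjamini-Hochberg adjustment. Dividing the size of the log2 fold change by the root of F gave the SE. limma 3.58.1 and DESeq2 1.42.0 served as alternatives, with other scalings, no filter, unrounded counts and each library left out. Steps were tested on simulated data with the same spread in both groups. They do not show how the test behaves with the wider spread of the organoids. Every replicate pair differed by more than sampling noise, with a chi-square of at least 8.8 per degree of freedom. Library totals ran from 18592574 to 26472447 counts, and limits from 3 counts cover counting error only.

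Genes named are all members by value or count, the called genes of each partner list (up to 3), and Nfe2l1, Nfe2l2 and Adrm1, chosen after their values were seen. The genes and lists were chosen with earlier results of these data known. Paaf1 and Ecpas were not analysed here, and the planned levels per coding length were not made.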

Additional observations from a re-analysis of the deposited data

How the results depend on the processing

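Over 15 alternatives, Psme4 and Psmc3 stayed called in each, no called core, regulatory or activator gene changed sign, and 10 fitted values of uncalled ones did. Psmb3 turned to 0.00786 with DESeq2 size factors in edgeR and 6.15e-05 with DESeq2, and ran from -0.63 to 0.27 when 1 library was left out. Psmd10 turned to -0.18, Psmd11 to -0.41 and Psme3 to -0.23 with total library size, and when 1 library was left out Psmd11 ran from -0.0735 to 0.616 and Psme1 from -0.33 to 0.0146. Psma6, Psmb1, Psmc1, Psmd2, Psmd7 and Nfe2l2, not past the threshold in the edgeR fit with TMM, passed with total library size, DESeq2 and both limma-voom fits. Total library size gave 1063 genes higher and 3529 lower (23.1% of calls higher, against 54.1%), 30 subunit genes called and 29 lower, 17 of them regulatory, medians of -1.31 (core), -1.53 (regulatory) and -0.11 (activator, against 0.46), and 17 partner genes lower. DESeq2 gave 5271 genes called against 3594, and 2 partner genes higher, and limma-voom 2533 genes lower against 1650. These causes were not tested.

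Leaving out 1 library gave 1109 to 5321 genes called (703 to 2747 higher, 399 to 2574 lower), 2 to 25 subunit genes called (1 to 23 lower, 1 to 2 higher), 0 to 11 core and 1 to 14 regulatory genes lower, 0 to 1 regulatory higher, and 1 to 15 partner genes lower and 1 to 2 higher. The medians ran from -0.78 to -0.62 (core), -1.11 to -0.71 (regulatory) and 0.06 to 0.71 (activator), and the shares of counts in organoids from 0.12% to 0.16% (core), 0.142% to 0.181% (regulatory) and 0.0161% to 0.023% (activator).

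Correlations of the deviations of same-numbered libraries were 0.0606, 0.187 and 0.0207 for numbers 1, 2 and 3. Not every library correlated best with its own number. Deviations were taken from the mean of only 3 libraries per group, so these correlations depend on each other. They cannot show whether the numbers pair the samples. With the replicate number as a block 12 subunit genes were called (11 lower, 2 of them core) and 2730 of all genes.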
